A study of Drosophila melanogaster with 6 samples.

Results

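The nuclear genes for the subunits of oxidative phosphorylation were followed in larval wing discs of *Drosophila melanogaster* with and without RNAi against *Nup98-96*. Members were chosen by name: every gene whose symbol starts with *ND-*, *UQCR-*, *COX* and a digit, or *ATPsyn*, together with *SdhA*, *SdhB*, *SdhC*, *SdhD*, *RFeSP*, *Cyt-c1* and *Cyt-c-p*. The rule gave 87 of the 17559 genes in the count table. Of these, 40 belong to complex I, 4 to complex II, 11 to complex III, 16 to complex IV and 15 to complex V, and the last is *Cyt-c-p*, cytochrome c. By symbol, 21 of the 87 are copies, which carry another subunit's name followed by L, and 66 are main members.

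Oxidative phosphorylation takes place in the inner mitochondrial membrane. Complex I (NADH dehydrogenase) and complex II (succinate dehydrogenase) pass electrons to ubiquinone, complex III passes them to cytochrome c, and complex IV passes them to oxygen. Complexes I, III and IV pump protons, and complex V, the ATP synthase, uses the gradient to make ATP. Complexes I, III, IV and V also need subunits encoded in the mitochondrial genome. In flies many subunit genes have duplicate copies, a number of which are known to be expressed mainly in the testis.

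Wing discs of wandering L3 larvae were compared between *Nup98-96* RNAi (line HM05048) and *white* RNAi (line JF01540), a control that targets an eye pigment gene, with 3 libraries for each genotype. Every animal also carried UAS-P35, which encodes a viral inhibitor of apoptosis, *ap*-Gal4 with UAS-GFP, and *tub*-Gal80TS, a temperature-sensitive repressor of Gal4. Larvae spent 4 days at 18°C with the driver off and 72 hours at 28°C with it on, and each library was made from polyA RNA pooled from 40 whole discs. *ap*-Gal4 is active in the dorsal compartment only, so each library also holds RNA from ventral cells without RNAi, and P35 was present in the control as well.

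The libraries held between 70342787 and 110330112 counts, and the members took 0.739% to 0.803% of them. Levels are given in CPM, the count scaled to a library of common size, and fold changes are log2 values of *Nup98-96* RNAi over *white* RNAi with a standard error (SE). Adjusted p-values are from edgeR's quasi-likelihood test with Benjamini-Hochberg adjustment over the 7965 genes that passed a filter on low counts, and a gene is called when the adjusted p is under 0.05 and the absolute log2 fold change is at least 0.5. Of all genes tested, 15.6% were called higher and 11.0% lower, with a median log2 fold change of 0.01. *Nup98-96* itself differed by -0.06 (SE 0.04, adjusted p = 0.166), so the knockdown could not be seen in its own transcript, whereas *w*, the target in the control, was higher in *Nup98-96* RNAi by 0.89 (SE 0.10, adjusted p = 0.000313). All 6 wing disc markers were detected, and *vg*, *nub* and *Dll* were called lower (3 of 6). In the other direction, 1 of the 6 was past the adjusted p, at a log2 fold change of 0.13. The summed level of 6 fat body markers was 3469 CPM in control replicate 1 and between 20.9 and 85.8 CPM in the other 5 libraries. Adult muscle precursor markers summed to 236 to 263 CPM in the control and 168 to 177 CPM in *Nup98-96* RNAi (3 of 5 called lower, none at 0), tracheal markers to 537 to 583 and 333 to 341 CPM (3 of 3 called lower, none at 0), and hemocyte markers, which overlapped, to 64.5 to 71.4 and 56.0 to 68.7 CPM (1 of 6 called lower). The neuronal marker *elav*, the 1 of 3 neuronal and glial markers that could be tested, was higher by 0.62 (adjusted p = 3.67e-05). The part of these shifts in cell types in any result below was not tested, and in bulk discs a change in the number of cells cannot be told apart from a change in RNA per cell.

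Most subunit genes differed little between the genotypes. Of the 87 members, 66 passed the filter, namely 63 main members and 3 copies. Among these 66, 3 were called higher, against 15.6% of all genes, and 1 was called lower, against 11.0%. The 3 that rose were *Cyt-c-p*, *COX7AL* and *ATPsynepsilonL*, and the 1 that fell was *ATPsynbetaL*, so that a single main member was called. The absolute log2 fold change was under 0.25 in 60 of the 66, whereas 48.4% of all genes tested lay that close to 0. Among the 6150 tested genes with a mean control level over 10 CPM, 3385 lay that close, 637 were called higher and 621 lower. The median over the members was 0.04, and the 95% interval lay wholly within -0.5 to 0.5 for 61 of them. Among the uncalled members no interval reached below -0.27 or above 0.53. The median SE of the members was 0.039, smaller than the 0.056 over all genes.

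At an adjusted p under 0.05 without a fold threshold, 18 members were higher and 7 lower, while 34.1% and 31.7% of all genes were. Every *Nup98-96* RNAi library lay above every control library in 27 of the 66 and below in 8, against 37.7% and 35.2% of all genes tested. Of the 25 members past the adjusted p, 14 stayed past it whichever single library was left out, 12 of them higher and 2 lower. Low members that are present in a single genotype can pass the filter on that genotype alone. This holds for *COX7AL*, whose control libraries all lay under the filter. It also holds for *ATPsynbetaL*, whose *Nup98-96* RNAi libraries all lay under the filter and whose control libraries lay close to it. No weight rests on the counts or tests for these copies. All 63 main members lay well above the filter in every library.

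**Figure D1:**
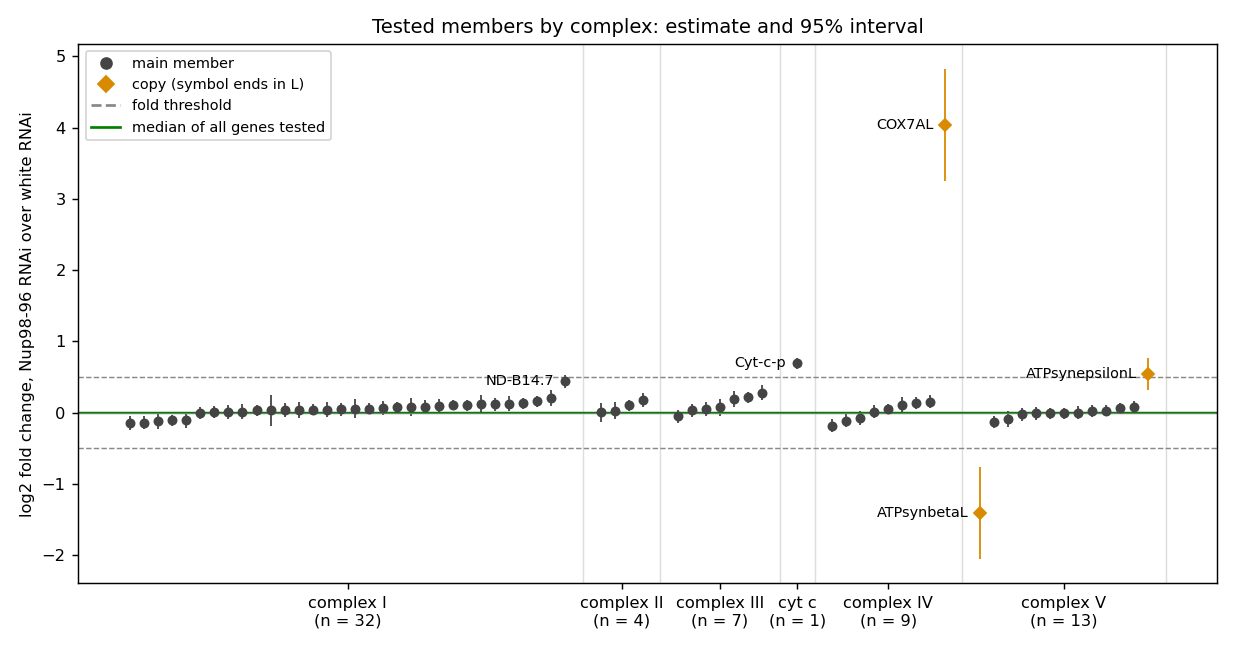
Log2 fold change of *Nup98-96* RNAi over *white* RNAi (y axis) for the 66 tested members, ordered by value within each complex (x axis). Points are estimates, vertical lines 95% intervals, circles main members and diamonds copies, dashed lines the fold threshold of 0.5 and the green line the median of all genes tested. The main members lie close to 0 apart from *Cyt-c-p* at 0.69 and *ND-B14.7* at 0.44, while the 3 tested copies spread from -1.40 to 4.04.

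The largest fold change among the main members was that of cytochrome c. *Cyt-c-p* encodes the cytochrome c of somatic tissues, the small heme protein that carries electrons from complex III to complex IV (FBgn0000409, chromosome arm 2L, 16719932 to 16722644). Its level was 76.8, 76.5 and 74.3 CPM in the control libraries and 121, 120.3 and 126 CPM in the *Nup98-96* RNAi libraries. The groups were far apart, with 75.9 ± 1.36 CPM (SD, n = 3) in the control and 123 ± 3.26 CPM (SD, n = 3) in *Nup98-96* RNAi, a log2 fold change of 0.69 (SE 0.03, adjusted p = 6.27e-06). Leaving out single libraries moved it between 0.67 and 0.71. The transcript shares no exon base with another gene. Of its neighbours, *CG31808*, 3736 bases away on the other strand, was called higher at 1.66 ± 0.234 and 3.29 ± 0.368 CPM (SD, n = 3; 0.99, adjusted p = 0.00322), and the pseudogene *CR43670*, 16734 bases away, was past the adjusted p at 0.35 (adjusted p = 0.0178). *VhaSFD*, a subunit of the vacuolar proton pump 238 bases away, was lower by 0.16 on the log2 scale (log2 fold change -0.16, adjusted p = 0.00498), and the testis cytochrome c *Cyt-c-d*, 296 bases away, was close to 0 throughout (0.0269 ± 0.0123 CPM in the control and 0.0293 ± 0.0297 CPM in *Nup98-96* RNAi, SD, n = 3).

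Complex III, the cytochrome bc1 complex, had 7 of 8 main members tested, none called, 3 past the adjusted p higher, 0 lower and a median of 0.08. The share of all genes higher at the adjusted p is 34.1%, so in a group this small the count stands close to the background. *Cyt-c1*, the subunit that hands electrons to cytochrome c, was at 93.0, 100.003 and 99.8 CPM in the control and 124, 114 and 118 CPM in *Nup98-96* RNAi. The groups did not overlap, and the log2 fold change was 0.28 (SE 0.05, adjusted p = 0.00142), past the test but under the fold threshold. *UQCR-C1*, a core protein of the matrix side, was at 235, 238 and 235 CPM in the control and 272, 267 and 281 CPM in *Nup98-96* RNAi, again without overlap (0.21, SE 0.03, adjusted p = 0.00108). *RFeSP*, the Rieske iron-sulfur protein, was at 60.3, 64.4 and 64.2 CPM against 68.7, 72.5 and 74.4 CPM (0.19, SE 0.04, adjusted p = 0.0083). These 3 stayed past the test whichever library was left out. The second core protein did not move with the first: *UQCR-C2* was at 132 ± 2.03 CPM and 135 ± 5.73 CPM (SD, n = 3), with overlapping groups and an interval of -0.06 to 0.13. *UQCR-Q*, *UQCR-11* and *UQCR-6.4*, small accessory subunits, had log2 fold changes of 0.08, 0.05 and -0.05 and overlapping groups. The summed level of the complex was 678 to 698 CPM in the control and 755 to 780 CPM in *Nup98-96* RNAi.

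**Figure D2:**
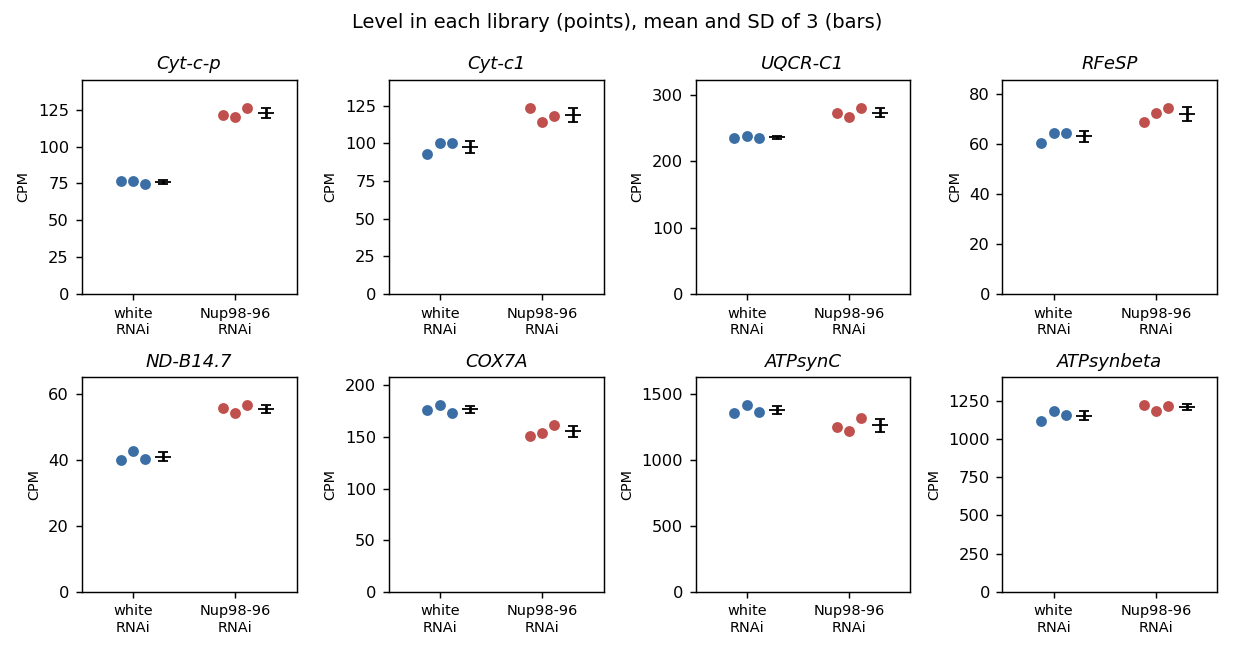
Level of 8 main members in each library (CPM, y axes from 0), with blue points for *white* RNAi, red points for *Nup98-96* RNAi and bars for the mean and SD of 3 libraries. *Cyt-c-p* rises from about 75.9 to 123 CPM, *Cyt-c1*, *UQCR-C1*, *RFeSP* and *ND-B14.7* rise by less, *COX7A* and *ATPsynC* lie lower in *Nup98-96* RNAi, and *ATPsynbeta* lies slightly higher (1207 against 1152 CPM, adjusted p = 0.0809).

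Complex I, the largest complex, had 32 of 34 main members tested, none called and a median of 0.05. At the adjusted p alone, 8 were higher and 3 lower, against 34.1% and 31.7% of all genes tested. The same shares stand beside the counts of complexes IV and V below. *ND-B14.7*, an accessory subunit of the membrane arm (chromosome arm 2R, 21025078 to 21026086), had the highest fold change of the complex. It was at 39.9, 42.5 and 40.2 CPM in the control and 55.7, 54.0 and 56.4 CPM in *Nup98-96* RNAi, a log2 fold change of 0.44 (SE 0.04, adjusted p = 0.000111) that stayed between 0.41 and 0.47 with single libraries left out. This gene was chosen for description after its value was seen. The nearest gene, *RIC-3*, was at 0.211 ± 0.0665 CPM and 0.493 ± 0.193 CPM (SD, n = 3), far below *ND-B14.7* in both groups.

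The catalytic arms of complex I held genes of both directions. In the module that oxidises NADH, *ND-75* was at 129, 132 and 136 CPM in the control and 143, 146 and 146 CPM in *Nup98-96* RNAi (0.13, SE 0.03, adjusted p = 0.0108), and *ND-24*, past the test at 0.13 with all libraries (adjusted p = 0.0355), missed it in 5 of the 6 fits that left out 1 library. Its partner *ND-51*, which binds NADH, was at 85.1 ± 2.56 CPM and 87.6 ± 4.64 CPM (SD, n = 3), with overlapping groups and an interval of -0.07 to 0.15. In the module that reduces ubiquinone, *ND-49* was at 155, 170.1 and 165 CPM in the control and 145, 151 and 146 CPM in *Nup98-96* RNAi (-0.15, SE 0.04, adjusted p = 0.0219). Without control replicate 2 or *Nup98-96* RNAi replicate 3 its adjusted p was over 0.05, up to 0.0733, while the log2 fold change stayed between -0.18 and -0.12 in the 6 fits that left out 1 library. *ND-20*, of the same module, was higher by 0.12 (adjusted p = 0.0356), with an adjusted p over 0.05 in 5 of these 6 fits at log2 fold changes between 0.09 and 0.15, and *ND-30* and *ND-23* had log2 fold changes of 0.04 each.

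Among the accessory subunits of complex I, *ND-B14.5B* (0.21, adjusted p = 0.0077) and *ND-B17.2* (0.16, adjusted p = 0.00422) were higher and kept this with any library left out. *ND-MLRQ*, whose mammalian counterpart is now placed in complex IV, and *ND-SGDH* passed the adjusted p at 0.10 and 0.11 and lost it in 3 and 5 of the 6 such fits. *ND-B16.6* (-0.14, adjusted p = 0.0131) and *ND-AGGG* (-0.11, adjusted p = 0.0269) were lower, the first in every fit but that without control replicate 2 (adjusted p = 0.0544) and the second in 2 of the 6 fits. Control levels per kb of exon ran from 6.23 CPM per kb for *ND-MWFE* to 147 CPM per kb for *ND-MLRQ*, with a median of 50.0 CPM per kb over the complex. *ND-MWFE* was at 5.29, 5.08 and 5.40 CPM in the control and 5.62, 5.35 and 5.16 CPM in *Nup98-96* RNAi, and shared 34.95% of its exon bases with *Nrk* and *TppII*. Summed over the complex, the libraries held 1714 to 1732 CPM in the control and 1743 to 1798 CPM in *Nup98-96* RNAi.

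Complex II is the smallest and has no mitochondrially encoded subunit. *SdhA*, the flavoprotein that oxidises succinate, was at 177, 183 and 177 CPM in the control and 193, 193 and 191 CPM in *Nup98-96* RNAi (0.10, SE 0.03, adjusted p = 0.0226), and the adjusted p was over 0.05 in 4 of the 6 fits that left out 1 library, where the log2 fold change was between 0.08 and 0.12. *SdhB*, the iron-sulfur subunit, was at 66.2, 65.1 and 62.6 CPM against 69.9, 74.0 and 74.8 CPM (0.17, SE 0.04, adjusted p = 0.00813) and stayed under an adjusted p of 0.05 in all 6. Both catalytic subunits lay higher without overlap, which makes 2 of 4 genes. Of all genes tested, 37.7% lay wholly higher and 34.1% were higher at the adjusted p, so in a group this small the count stands close to the background. The membrane anchors did not separate: *SdhC* was at 59.5 ± 1.05 CPM and 59.6 ± 4.20 CPM (SD, n = 3; log2 fold change 0.00, interval -0.13 to 0.13) and *SdhD* at 42.0 ± 2.02 CPM and 42.9 ± 1.94 CPM (0.03, interval -0.09 to 0.15). Per kb of exon the 4 genes were close in level, from 47.0 CPM per kb for *SdhD* to 65.6 CPM per kb for *SdhC* in the control.

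Complex IV, cytochrome c oxidase, had all 8 main members tested, all of them accessory subunits around a core encoded in the mitochondria, with 2 past the adjusted p in each direction and a median of 0.03. *COX4* was at 150.5, 158 and 155.8 CPM in the control and 169, 169 and 178 CPM in *Nup98-96* RNAi (0.15, SE 0.04, adjusted p = 0.0106). *COX5A* was higher by 0.13 (SE 0.04, adjusted p = 0.0162), with an adjusted p over 0.05 without *Nup98-96* RNAi replicate 1 or 3 (up to 0.0691) and log2 fold changes between 0.11 and 0.15. *COX7A* moved the other way, from 176, 181 and 173 CPM to 151, 154 and 161 CPM, without overlap (-0.18, SE 0.04, adjusted p = 0.00438), and was lower whichever library was left out. *COX6B* was lower by 0.11 on the log2 scale (log2 fold change -0.11, adjusted p = 0.0368), with an adjusted p over 0.05 in 4 of the 6 fits with a library left out and values between -0.14 and -0.10. *COX5B*, *COX7B*, *COX7C* and *COX8* did not pass the test, with log2 fold changes between -0.07 and 0.11. In the control, levels ran from 58.1 CPM per kb for *COX7C* to 254 CPM per kb for *COX7A*, so the highest member was also the lowest by fold change. The summed levels overlapped, at 896 to 918 CPM in the control and 889 to 937 CPM in *Nup98-96* RNAi.

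Complex V had the highest levels and the fewest differences. All 11 main members were tested, 0 were higher and 1 was lower by the adjusted p, and the median was -0.01. *ATPsynC*, whose product forms the proton-driven ring of the membrane rotor, had the highest level of any member at 737 CPM per kb in the control. It was at 1353, 1412 and 1365 CPM in the control and 1251, 1216 and 1314 CPM in *Nup98-96* RNAi (-0.13, SE 0.04, adjusted p = 0.0176), and the adjusted p was over 0.05 without control replicate 2 (-0.11, adjusted p = 0.0666) or *Nup98-96* RNAi replicate 2 (-0.10, adjusted p = 0.0601). *ATPsynbeta*, the catalytic subunit of the head, was at 1120, 1180 and 1155 CPM in the control and 1219, 1184 and 1217 CPM in *Nup98-96* RNAi, without overlap and with an adjusted p over 0.05 (0.07, adjusted p = 0.0809). It was under 0.05 with upper-quartile scaling (0.09, adjusted p = 0.0174) and with library size only (0.08, adjusted p = 0.035). The rotor's central stalk subunits *ATPsyngamma* and *ATPsyndelta* had log2 fold changes of -0.01 and 0.07, and the peripheral stalk subunits *ATPsynB*, *ATPsynD*, *ATPsynO* and *ATPsynCF6* lay between -0.01 and 0.03. *ATPsynE*, *ATPsynF* and *ATPsynG*, of the membrane part, were at -0.02, -0.09 and 0.00. Summed levels overlapped, at 3881 to 4014 CPM and 3782 to 3977 CPM.

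By level, complex V stood above the others. The median control level per kb of exon was 193 CPM per kb for complex V, 152 CPM per kb for complex IV, 59.99 CPM per kb for complex III, 59.0 CPM per kb for complex II and 50.0 CPM per kb for complex I, with *Cyt-c-p* at 111 CPM per kb. These are single estimates over genes that differ widely within a complex. Summed levels of complexes I, II and III and of cytochrome c did not overlap between the genotypes, all lying higher in *Nup98-96* RNAi. Those of complexes IV and V overlapped. For complex I the gap was narrow, from 1732 CPM in the highest control library to 1743 CPM in the lowest *Nup98-96* RNAi library. The scaling factors of the libraries (TMM) ran from 0.967 to 1.02, so a gap this narrow depends on the scaling. Among single genes tested, 37.7% had every *Nup98-96* RNAi library above every control library. No test of the difference between complexes was made. Across the 63 tested main members, the control level and the log2 fold change had a Spearman rho of -0.15 and a Pearson r of -0.13, given as a description over genes that share the same 6 libraries.

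The copies were low. Added together, the 21 copies reached 8.72, 9.71 and 9.10 CPM in the control libraries and 13.7, 13.6 and 13.8 CPM in *Nup98-96* RNAi. Of the 21, 4 had no count in any library (*ND-B14.5AL*, *UQCR-14L*, *COX5BL* and *COX6CL*) and 11 reached 10 counts in at least 1 library. The annotation gives 5 copies, and 0 of the 66 main members, a single exon, and 6 copies lie on the chromosome arm of their main copy.

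*COX7AL*, a copy of *COX7A* (FBgn0037579, 3R, 8343669 to 8344310), had the largest change of any member. It was at 0.105, 0.205 and 0.122 CPM in the control, from 10, 20 and 13 counts, and at 2.52, 2.43 and 2.22 CPM in *Nup98-96* RNAi, from 178, 245 and 193 counts. The groups were widely separated, with a log2 fold change of 4.04 (SE 0.33, adjusted p = 6.40e-05) that stayed between 3.87 and 4.38 with single libraries left out. *COX7AL* passed the filter on the *Nup98-96* RNAi libraries alone, and the fits with a library left out kept the genes chosen with every library. No weight rests on its adjusted p or on this range. The copy remained far below *COX7A*, which was at 173 to 181 CPM in the control libraries and lies 2625 bases away on the other strand. *COX7AL* shares no exon base with another gene, but *DppIII*, a dipeptidyl peptidase, lies 89 bases from it on the same strand at 355 ± 17.8 CPM in the control and 299 ± 3.11 CPM in *Nup98-96* RNAi (SD, n = 3). That neighbour was lower, not higher (-0.25, adjusted p = 0.00191). *CG7352*, 3268 bases away, was called higher (0.53, adjusted p = 0.00067).

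*ATPsynbetaL*, a copy of the catalytic *ATPsynbeta* (FBgn0036568, 3L, 16097834 to 16100088), went the other way. It was at 2.08, 1.96 and 2.02 CPM in the control and 0.708, 0.575 and 1.01 CPM in *Nup98-96* RNAi, without overlap (-1.40, SE 0.27, adjusted p = 0.00344, and -1.66 to -1.23 with single libraries left out). *ATPsynbetaL* passed the filter on the control alone, close to the threshold, and the fits with a library left out kept the genes chosen with every library. *CG13074*, 340 bases away and too low to be tested, was lower as well, at 1.32 ± 0.116 and 0.652 ± 0.192 CPM (SD, n = 3), and *IleRS-m*, a mitochondrial tRNA synthetase 191 bases to the other side, was at 32.9 ± 0.666 and 29.0 ± 0.27 CPM (-0.18, adjusted p = 0.00284).

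*ATPsynepsilonL*, a copy of the epsilon subunit gene *sun* (FBgn0051477, 3R, 10121773 to 10122320), was the most abundant copy. It was at 4.95, 5.91 and 5.73 CPM in the control and 7.83, 7.89 and 8.38 CPM in *Nup98-96* RNAi (0.54, SE 0.09, adjusted p = 0.00201). Without control replicate 1, the library rich in fat body transcripts, the log2 fold change was 0.47, under the fold threshold, and a test against a change of 0.5 did not call it (adjusted p = 0.565). *sun* itself was at 82.4 ± 1.18 and 80.2 ± 0.603 CPM (SD, n = 3; -0.04, adjusted p = 0.265).

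A more permissive filter, edgeR's filterByExpr, tested 10780 genes and 8 copies, again with the reservation that a low copy can enter through its higher group. *COX4L* was at 0.251, 0.164 and 0.187 CPM in the control and 0.396, 0.743 and 0.494 CPM in *Nup98-96* RNAi and was called higher (1.43, adjusted p = 0.012). *ND-51L1* rested on 4, 6 and 2 counts in the control against 17, 27 and 13, and was called higher too (2.39, adjusted p = 0.00675). *ND-20L* (0.412 ± 0.119 against 0.403 ± 0.114 CPM), *COX7AL2* (0.0825 ± 0.0266 against 0.133 ± 0.084 CPM) and *COX7CL* (0.575 ± 0.144 against 0.809 ± 0.139 CPM) had overlapping groups (SD, n = 3) and were not called. A further 3 copies, too low for either filter, had 10 counts or more in a library: *ND-51L2* with 0, 2 and 1 counts in the control and 16, 12 and 2 in *Nup98-96* RNAi, *UQCR-11L* with 2, 8 and 2 against 10, 10 and 10, and *UQCR-6.4L* with 8, 6 and 11 against 4, 5 and 6. The main copies of those called had log2 fold changes of 0.15 (*COX4*), 0.04 (*ND-51*), -0.18 (*COX7A*), 0.07 (*ATPsynbeta*) and -0.04 (*sun*). The other 6 copies, *ND-24L*, *ND-49L*, *COX6AL*, *COX6AL2*, *ATPsynCF6L* and *ATPsynGL*, had at most 8 counts in any library.

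Testis markers were low in the discs apart from *bam*. The 10 testis markers summed to 5.01 to 5.78 CPM in the control and 4.71 to 8.84 CPM in *Nup98-96* RNAi, most of it from *bam* (5.23, 5.34 and 4.55 CPM against 3.85, 3.75 and 7.20 CPM), the 1 marker that could be tested, which was not called. The sperm chromatin genes *ProtA* and *ProtB* had no count in any control library and reached 0.178 to 0.287 and 0.297 to 0.466 CPM in *Nup98-96* RNAi, and *Mst98Ca*, also at 0 in the control, reached 0.0115 to 0.307 CPM. The remaining markers of the list are not given gene by gene, so the genes that went from 0 to a low level do not stand for the list. The part of the testis markers in the levels of the copies was not tested. The copies of members outside the naming rule stayed low and overlapped between groups: *SdhBL* was at 0.262 to 0.442 and 0.387 to 0.51 CPM, and *Cyt-c1L* at 0.144 to 0.241 and 0.156 to 0.253 CPM.

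**Figure D3:**
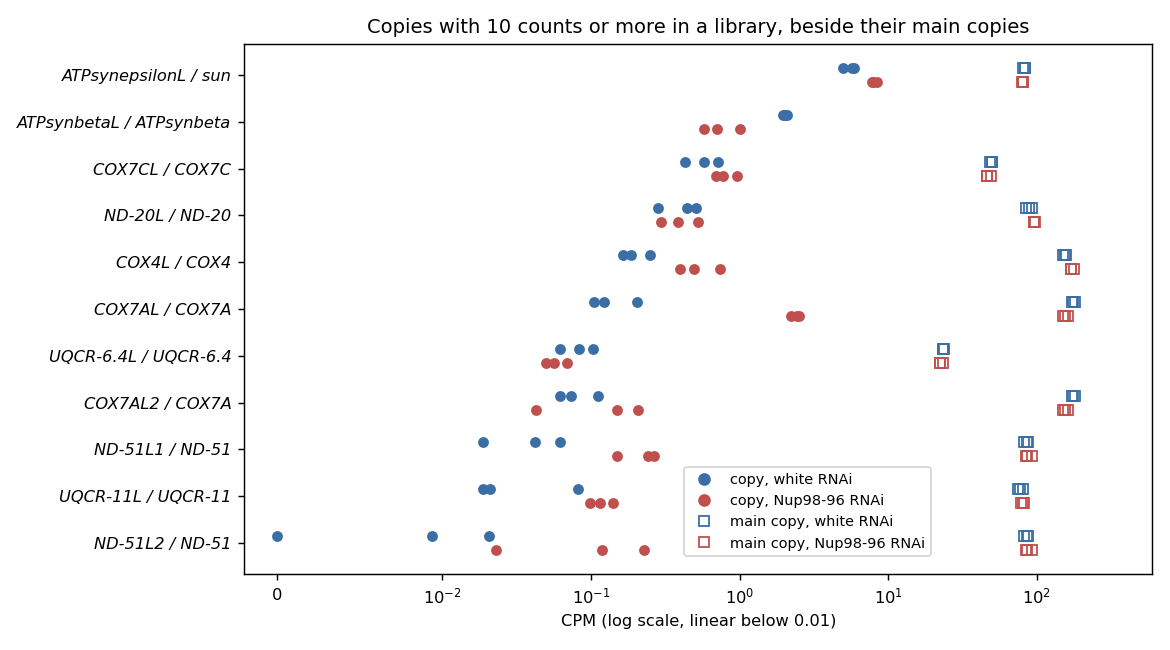
Level (x axis, CPM, log scale that is linear below 0.01) of the 11 copies with 10 counts or more in a library, each beside its main copy (y axis, copy / main copy). Filled circles are copies, open squares main copies, blue *white* RNAi and red *Nup98-96* RNAi, 1 symbol per library. Every copy lies far below its main copy, and *COX7AL* moves from 0.105 to 0.205 CPM up to 2.22 to 2.52 CPM.

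A few members had no count where the annotation places them inside another gene. *ND-MNLL* and *UQCR-14* had no count in any library, and all of their exon bases lie within the exons of *CG45089* on the same strand and *CG32576* on the other, and the same held for the copy *COX5BL* within *Trmt6*. *ND-B8*, with 2 to 17 counts a library, was the only other main member not tested. In all, 37 members share exon bases with another gene, 29 of them only with genes on the opposite strand, and the deposited table was counted without strand. None of the 31 tested members with such an overlap was called, with 6 past the adjusted p higher and 3 lower. Of all genes tested, 34.1% were past the adjusted p higher and 31.7% lower. Of the 35 without overlap, 3 were called higher and 1 lower, against 15.6% and 11.0% of all genes tested.

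The 13 mitochondrially encoded subunits, all tested, can be set beside the nuclear ones, with the limit that polyA selection need not capture these transcripts evenly. None was called higher and 1 was called lower, against 15.6% and 11.0% of all genes tested. *mt:ATPase8*, a small subunit of the ATP synthase membrane part, was at 6.79, 5.74 and 6.68 CPM in the control and 4.16, 4.26 and 5.04 CPM in *Nup98-96* RNAi (-0.51, SE 0.12, adjusted p = 0.00853). It lies next to the threshold and dropped under it when any one of 4 libraries was left out, namely control replicates 1 and 3 and *Nup98-96* RNAi replicates 1 and 2, where it was between -0.48 and -0.47. *mt:ND6* passed the adjusted p alone (-0.47, adjusted p = 0.0327). The abundant transcripts did not separate: *mt:CoI*, the catalytic core of complex IV, was at 4462, 4501 and 4927 CPM against 4389, 4576 and 4810 CPM, and *mt:Cyt-b*, of complex III, at 886, 931 and 1136 CPM against 1023, 1156 and 1195 CPM (0.19, SE 0.10, adjusted p = 0.138). The median of the 13 was -0.04.

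Other subunits named outside the rule had fold changes within the range of the main members. *blw*, the alpha subunit of complex V, was at 1081 to 1122 and 1035 to 1099 CPM (-0.04, adjusted p = 0.281), and the complex IV subunits *levy* and *cype* had log2 fold changes of -0.06 and 0.05. Of the factors that build complex IV, *Cox17*, a copper chaperone, was called higher, at 7.61, 7.34 and 5.83 CPM in the control and 13.6, 13.1 and 13.1 CPM in *Nup98-96* RNAi (0.94, SE 0.11, adjusted p = 0.000294), and *Cox10*, which makes the heme of the enzyme, was higher by 0.41 (SE 0.05, adjusted p = 0.000314), both described after their values were seen, while *Cox11*, which inserts copper, was not past the test (0.19, adjusted p = 0.149). A list of 10 tested assembly factors, among them *Surf1*, *Scox* and *sicily*, had 0 called. At the adjusted p alone, 2 were higher and 1 lower, against 34.1% and 31.7% of all genes tested.

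**Figure D4:**
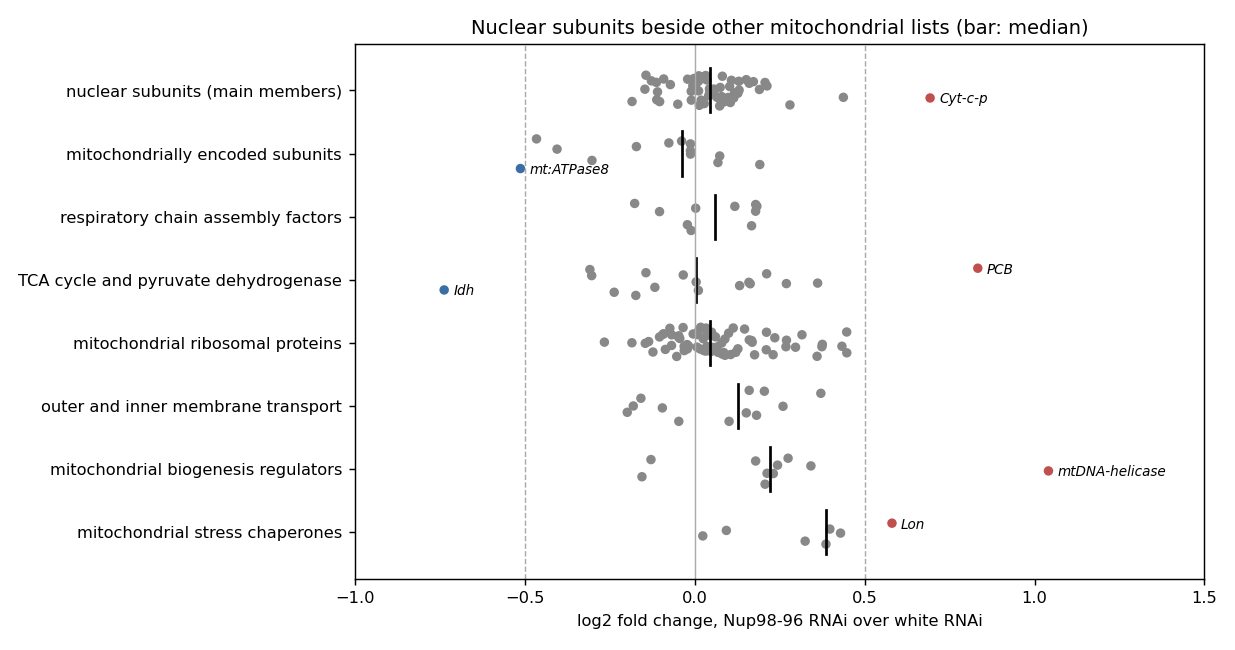
Log2 fold change of *Nup98-96* RNAi over *white* RNAi (x axis) for each tested gene of the main members and of 7 other mitochondrial lists (y axis). Red points are called higher, blue points lower, black bars are list medians and dashed lines the fold threshold of 0.5. The nuclear subunits and the mitochondrial ribosomal proteins share a median of about 0.04 to 0.05, the stress chaperones have a median of 0.39, and single genes such as *Idh* and *PCB* lie apart.

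The pathways around the chain were read the same way. The tricarboxylic acid cycle and pyruvate dehydrogenase list, which feeds electrons into complexes I and II, had 17 genes tested, with a median of 0.00 and 7 past the adjusted p in each direction. At the adjusted p alone, the shares of all genes to set beside this and the lists that follow are 34.1% higher and 31.7% lower. *PCB*, pyruvate carboxylase, was called higher, at 132, 137 and 114 CPM against 269, 217 and 194 CPM (0.83, SE 0.13, adjusted p = 0.00117), and *Idh*, the NADP-dependent isocitrate dehydrogenase, lower, at 620, 677 and 708 CPM against 402, 402 and 399 CPM (-0.74, SE 0.05, adjusted p = 2.69e-05). The NAD-dependent enzyme's subunits *Idh3a*, *Idh3b* and *Idh3g* were higher by 0.16, 0.13 and 0.21 on the log2 scale, past the adjusted p.

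Among regulators of mitochondrial gene expression and genome copying, 10 were tested, 6 were past the adjusted p higher and 2 lower, with a median of 0.22. *mtDNA-helicase*, which unwinds the mitochondrial genome, was called higher, at 10.5, 9.34 and 7.46 CPM against 20.5, 18.7 and 17.1 CPM (1.04, SE 0.13, adjusted p = 0.000505). *srl*, the fly PGC-1 coactivator, was past the adjusted p at 0.34 (SE 0.04, adjusted p = 0.000324) and was picked out after its value was seen, and *TFAM*, which packages the genome, was past it in the other direction at -0.13 (adjusted p = 0.00934). Of 7 tested mitochondrial stress chaperones and proteases, 5 were past the adjusted p higher and 0 lower. *Lon*, a matrix protease, was called, at 97.2, 96.7 and 94.6 CPM against 145, 146 and 141 CPM (0.58, SE 0.03, adjusted p = 8.71e-06), and *Hsp60A* and *Hsc70-5*, matrix chaperones, were past the adjusted p at 0.43 and 0.39.

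Of the 12 tested transport genes 0 were called, with 6 past the adjusted p higher, such as the phosphate carrier *Mpcp2* (0.37, adjusted p = 9.57e-05), and 2 lower, such as *porin* (-0.18, adjusted p = 0.0234). The 72 tested mitochondrial ribosomal proteins had 0 called, 19 past the adjusted p higher, 4 lower and a median of 0.05, next to 18 and 7 of the 66 subunit genes.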

How the data were processed

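The deposited table holds unnormalised counts per gene for 6 libraries. Per the labels and the study's methods, the authors aligned polyA RNA reads to BDGP6 with Rsubread and counted them with featureCounts, without strand by the table's name, although the libraries were directional. How reads in overlapping genes were treated is not given in the sources used here. A second deposited table holds the authors' own fold changes and p-values, which were not used, and from it only gene IDs, names and positions (unit other) were read, of which 4779 of 4832 matched the annotation used here exactly. That annotation, BDGP6.54 (Ensembl release 115), named 17253 of 17559 genes, and the deposited table another 120. The submitters' notes name edgeR 3.13.4. There were 0 unmapped columns. No pair of replicates looked like a library deposited again, since a chi-square of their counts over genes, divided by its degrees of freedom, was 16.0 to 165.

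Counts were scaled by TMM and tested with edgeR 4.0.16 in R 4.3.3 (glmQLFit and glmQLFTest) on all 6 libraries without covariates. Genes were kept when any library exceeded 194 scaled counts, a threshold chosen by a rewritten Jaccard similarity filter, which left 7965 genes. The test was checked on simulated counts first. Intervals are 95% intervals from the fitted SE. Levels per kb are CPM divided by the union of annotated exons. Nothing says that libraries came from separate crosses, so p-values measure the spread between libraries. Alternatives were other scalings, filters and tests (DESeq2 1.42.0, voom in limma 3.58.1, glmTreat), the replicate block and leaving out each library. Leaving-out fits for copies tested only under filterByExpr were added after the data were seen.

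The members and lists were chosen with earlier results of these data known. The rule for naming genes covered called members, at most the 4 highest and 4 lowest fold changes per complex. It also covered the highest and lowest control level per kb in each complex, the *Sdh* genes, *RFeSP*, *Cyt-c1* and *Cyt-c-p*. Copies with 10 counts or more beside their main copies, up to 2 called genes each way per list, and the RNAi targets completed it. Further members were described outside this rule to account for each complex. Uncalled genes of the other lists, such as *TFAM*, *Hsp60A*, *Mpcp2* and *Pink1*, were also described outside it. The comparison lists matched 13 of 13 mitochondrially encoded subunits, 4 of 5 copies outside the rule, 18 of 19 cycle genes, 11 of 13 assembly factors, 11 of 11 regulators, 16 of 17 transport genes, 9 of 9 chaperones and 73 of 73 ribosomal proteins. One neighbouring gene is not reported here.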

Additional observations from a re-analysis of the deposited data

How the results depend on the processing

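Under other scalings, filters and tests, the main picture of few called subunit genes held, with exceptions at low counts. Members called higher numbered 3, and 5 under filterByExpr (17.4% of all genes), 6 with no filter (13.0%) and 2 under glmTreat (11.4%). With single libraries left out, members called higher numbered 2 to 3 and members called lower stayed at 1 (1 to 1). These fits kept the genes that the filter chose on all 6 libraries, so whether *COX7AL* or *ATPsynbetaL* would pass it again was not tested. Members past the adjusted p alone numbered 12 to 17 higher and 2 to 7 lower in these fits, and the median log2 fold change was 0.038 to 0.049. The count of lower members fell to 2 without control replicate 2 and to 4 without *Nup98-96* RNAi replicate 2. Over 39 single genes and 555 alternatives, 533 fits kept direction and side of the threshold, 9 lost a call (*ATPsynepsilonL* and *mt:ATPase8*) and 13 changed sign, all in genes near 0 that were never called. *SdhC* was -0.0115 under RLE scaling, -0.0117 under filterByExpr, -0.0268 with no filter and -0.0111 under DESeq2, and -0.0438 to 0.033 with single libraries left out, where *ND-MWFE* was -0.023 to 0.0619, *ND-51* -0.00302 to 0.0622 and *ND-20L* -0.31 to 0.12. *mt:ATPase8* was -0.49 under upper-quartile scaling and -0.50 with library size only. The cause was not tested.

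With the replicate number as a block, 3 members were called higher and 1 lower, as without it, and 13 and 5 were past the adjusted p alone. Same-numbered libraries deviated together in none of the pairs (correlations of -0.17, 0.00069 and 0.012). Differently numbered libraries had correlations of -0.18 to 0.21. With 3 libraries for each genotype this cannot tell whether same-numbered libraries were handled together. Copies with a few counts a library were tested under permissive filters only, and their values rest on those counts.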

Other observations

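The main members on the X chromosome and on the autosomes were set side by side as a description. The 10 tested X-linked members had a median log2 fold change of 0.08, with 3 past the adjusted p higher and 2 lower. The 53 autosomal ones had a median of 0.04, with 13 higher and 4 lower. Of all genes tested, 34.1% were past the adjusted p higher and 31.7% lower. *Pink1*, a kinase that marks damaged mitochondria and belongs to the stress list, was at 50.8, 50.1 and 46.2 CPM in the control and 64.4, 66.2 and 63.1 CPM in *Nup98-96* RNAi (0.40, SE 0.05, adjusted p = 0.000343). Its partner *park*, which was too low to be tested, was at 1.41, 1.45 and 1.47 CPM against 1.64, 1.53 and 1.28 CPM. Counting was without strand, and *park* shares 65.1% of its exon bases with genes on the other strand, against 10.5% for *Pink1*. The adenine nucleotide translocase *sesB*, which exchanges the ATP made by complex V for ADP, was at 1308 to 1390 CPM and 1193 to 1331 CPM with overlapping groups (-0.09, adjusted p = 0.12).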
